A study of Rattus norvegicus with 24 samples.

Results

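Pericentral hepatocyte genes and targets of the Wnt pathway were followed in the livers of adolescent rats that had breathed PCB 52 or had a sham exposure. The set was a list of 10 genes: Glul, Oat, Cyp2e1, Rhbg, Slc1a2, Axin2, Lgr5, Tbx3, Rgn and Znrf3. They were chosen by symbol, as rows of both deposited count tables whose Entrez gene ID maps to one of these rat symbols. The list itself was drawn up with earlier results of these data known. Of the 10 listed genes, 9 had a row among the 15319 genes of the tables, and 8 of these passed the filter on low counts in every comparison. Lgr5 had too few counts to pass, and Znrf3 was not analysed here.

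Liver lobules are zoned. Blood enters at the portal tract and leaves at the central vein, and hepatocytes along this path express different genes. Endothelial cells of the central vein and the neighbouring sinusoids release Wnt ligands and R-spondins. In hepatocytes close to that vein, beta-catenin is then spared from the destruction complex and switches on target genes through TCF factors. Pericentral hepatocytes capture ammonia that escaped urea synthesis and build it into glutamine, and they carry much of the liver's xenobiotic metabolism. Bulk tissue was sequenced, so fewer cells of a type and less RNA per cell cannot be told apart in any result given here.

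The animals were 24 Sprague-Dawley rats, an outbred stock, with no engineered allele named in the labels and 1 liver library per animal. Rats arrived at 28 days of age, were acclimated for 8 days and were trained in the nose-only apparatus. Exposure began at 39 days of age in males and 42 days in females and ran for 4 hours a day over 28 days, with air drawn at 12 L/min over glass beads coated with PCB 52, a tetrachlorinated biphenyl. Of each sex, 6 animals had the sham exposure and 6 had PCB 52, which gives 4 groups. Sex cannot be told apart from the age at the start of exposure, or from the count table, since each sex had its own table. Nothing in the labels gave a delivered dose or a shared day for any animals. Each group was 6 separate animals, so the p-values measure the spread between animals.

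Library totals ran from 6994832 to 9185511 counts, and levels are given as CPM, counts per 1000000 library counts. The 2 cytochromes known to be sex-specific in rat liver separated the labelled sexes, with Cyp2c12 higher in sham females by 6.57 and Cyp2c11 lower by 12.3 on the log2 scale. Hepatocyte markers summed to between 143695 and 186909 CPM in every library. A library axis was scored with gene weights from the leading variation within groups. Only the mean of each sex was removed before scoring, so exposure differences remain in the score. On it the exposed animals 13 to 16 scored from 8.95 to 12.7 and the other 20 animals from -7.05 to 6.83. With group means removed from the score they did not stand apart. Animals 13 to 16 then had 7.57, 8.23, 6.71 and 10.2, and sham animals 11 and 12 had 9.07 and 7.90. Both sexes had 2 of the 4 exposed animals 13 to 16, so results that rest on these are given without them as well.

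The promoters of the set were read for letters that TCF factors are known to bind, because Axin2 is a textbook direct target while other members are known mainly by their zone. RefSeq windows of the GRCr8 build, from 250 bases before to 50 after an annotated start, were at hand for 7 of the 10 genes (Glul, Oat, Cyp2e1, Rhbg, Slc1a2, Axin2 and Rgn). The letters CTTTGAT and CTTTGAA were searched on both strands; the searches share their first 6 letters but cannot match at 1 place. Of all 33469 such windows, 8.73% held a match, and 9.41% of 27457 genes had at least 1 matching window. A match was found for 4 of the 7 genes, in 1 of the windows where a gene had several, and no match in the windows of Oat, Rhbg and Rgn says only that these letters are not there. The 4 matching windows are shown 5′ to 3′ on the gene's own strand with each match in capitals. A match on the other strand reads ATCAAAG. Axin2 held both motifs, starting at positions -232 and -132 from the start site (chr10:94398535-94398834, plus strand). Cyp2e1 held CTTTGAA at position -153 (chr1:205269717-205270016, plus strand). In the window of the more upstream of 2 Glul starts, CTTTGAT lay on the other strand from position -230 (chr13:68519250-68519549, plus strand). Slc1a2 held CTTTGAT on the other strand from position -189 in the window of the more downstream of its 2 starts (chr3:109507697-109507996, plus strand). These matches describe letters, and no binding was measured.
Axin2: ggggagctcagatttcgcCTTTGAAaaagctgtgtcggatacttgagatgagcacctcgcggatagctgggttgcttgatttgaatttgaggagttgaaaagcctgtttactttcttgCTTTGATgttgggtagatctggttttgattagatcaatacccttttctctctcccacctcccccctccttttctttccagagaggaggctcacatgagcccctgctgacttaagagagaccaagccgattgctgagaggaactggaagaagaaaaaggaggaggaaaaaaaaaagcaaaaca
Cyp2e1: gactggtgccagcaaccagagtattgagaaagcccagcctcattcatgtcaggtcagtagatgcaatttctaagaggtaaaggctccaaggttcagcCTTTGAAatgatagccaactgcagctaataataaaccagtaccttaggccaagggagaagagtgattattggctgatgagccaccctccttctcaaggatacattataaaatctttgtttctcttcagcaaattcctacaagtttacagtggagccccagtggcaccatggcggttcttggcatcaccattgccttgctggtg
Glul: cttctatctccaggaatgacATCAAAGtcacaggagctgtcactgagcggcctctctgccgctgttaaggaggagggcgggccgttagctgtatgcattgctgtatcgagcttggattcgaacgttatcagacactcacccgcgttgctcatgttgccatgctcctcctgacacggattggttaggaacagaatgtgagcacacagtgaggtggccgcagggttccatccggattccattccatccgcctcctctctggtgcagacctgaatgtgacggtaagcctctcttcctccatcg
Slc1a2: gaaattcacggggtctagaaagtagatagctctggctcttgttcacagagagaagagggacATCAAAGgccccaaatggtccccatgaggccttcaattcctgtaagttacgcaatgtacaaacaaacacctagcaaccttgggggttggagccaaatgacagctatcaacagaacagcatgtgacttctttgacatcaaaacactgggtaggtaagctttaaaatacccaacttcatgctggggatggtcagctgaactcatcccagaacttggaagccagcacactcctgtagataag

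Exposure to PCB 52 left no member past the test in either sex. In females, edgeR's quasi-likelihood test with Benjamini-Hochberg adjustment called 0 of the 8 tested members, beside 0.0% of 10251 genes (0 genes), and no member had an unadjusted p under 0.05, against 1021 of all genes. In males it called 0 of 8, beside 0.0% of 10180 genes (0 genes), again with 0 members and 585 of all genes at an unadjusted p under 0.05. DESeq2 called 28 genes in females and 1 in males, limma-voom called 0 in both, and neither called a member. Members split evenly, 4 above and 4 below 0 in each sex. Their median log2 fold change was 0.015 in females, where the median of all genes was 0.0032, and -0.018 in males, where it was 0.0034. The difference between the responses of females and males gave 0 of 8 members and 0.0% of 10535 genes, with 0 members and 239 genes at an unadjusted p under 0.05. The average response of both sexes gave 0 of 8 members and 0.0% of genes, with 1 member (Rgn) and 1625 genes at an unadjusted p under 0.05. For these last comparisons DESeq2 called 0 and 105 genes, limma-voom called 0 and 0, and neither called a member.

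**Figure D1:**
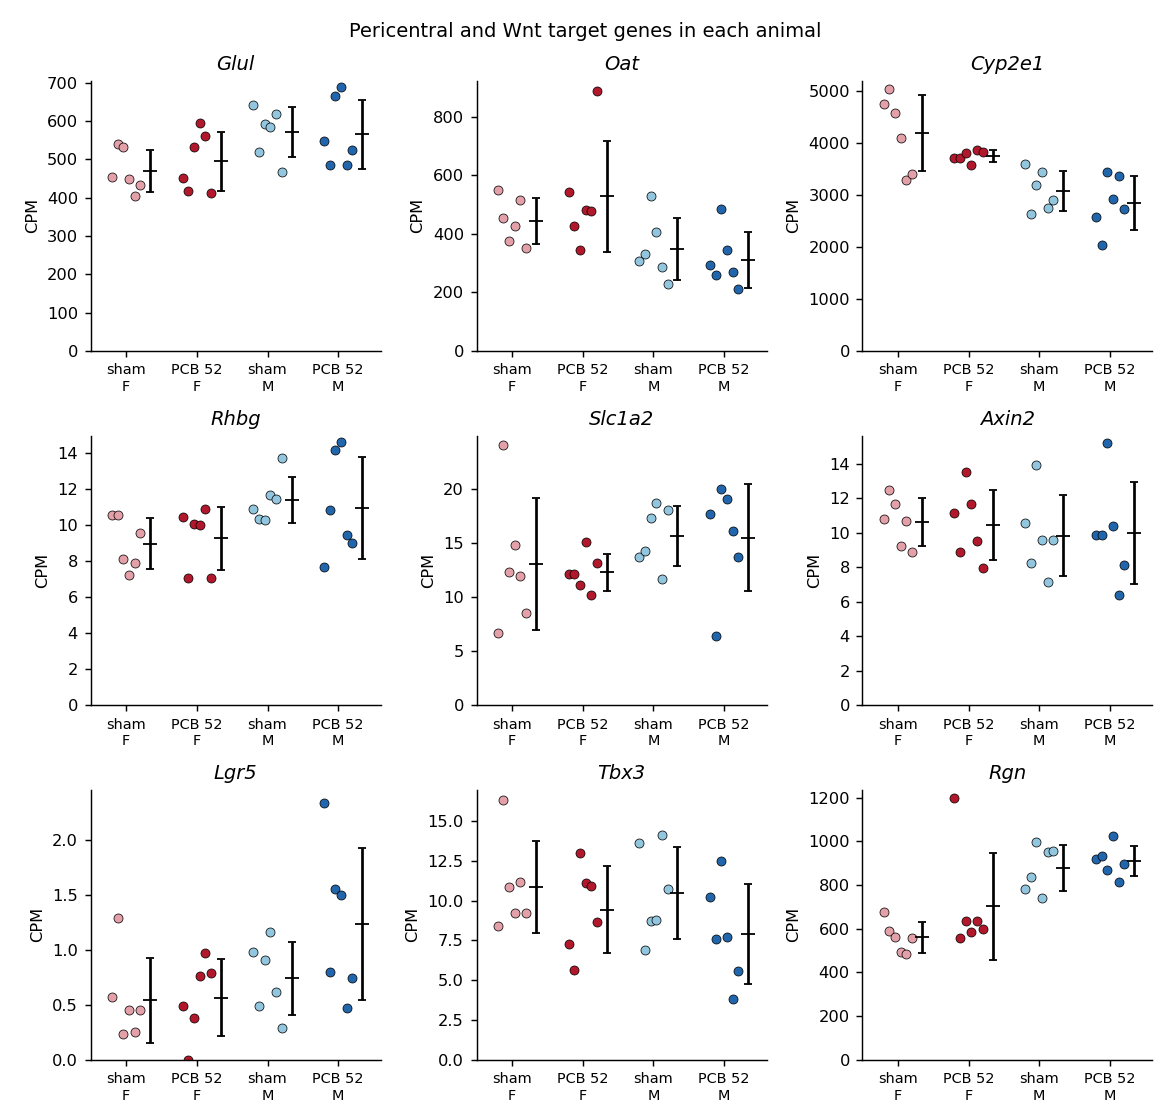
CPM of the 9 measured genes in each animal (points), by sex and exposure, with the group mean and SD (bar to the right of the points, n = 6). Sham and PCB 52 animals of a sex overlap in every panel, while Rgn separates sham females from sham males and Cyp2e1 separates exposed females from exposed males.

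Sex, in contrast, was a difference that several members showed. Sham females had more Cyp2e1 and less Rgn and Glul than sham males, and exposed females had more Cyp2e1 and Oat and less Rgn than exposed males. The test called 3 of 8 members in sham animals, 1 higher in females beside 10.7% of all genes and 2 lower beside 9.62%. In exposed animals it called 3 of 8, 2 higher in females beside 10.1% of all genes and 1 lower beside 9.73%. The count in exposed animals was 0 without animal 13, 15, 23 or 24, 1 without animal 22 or without animals 13 to 16 together, and 2 without any 1 of the other 7 exposed animals. In sham animals it was 2 without animal 1, 5, 7, 9, 10 or 12, 4 without animal 2, and 3 without any 1 of the other 5 sham animals. DESeq2 called 3 members in each comparison, and limma-voom called 4 in sham animals and 2 in exposed animals. Of all 10535 genes, DESeq2 called 2258 in sham and 2207 in exposed animals, and limma-voom called 2597 and 2059. The members' median log2 difference was -0.14 in sham animals and -0.10 in exposed animals, where the medians of all genes were -0.0033 and -0.0044. The groups did not overlap for 1 of 8 members in sham animals (Rgn), beside 11.5% of all genes, and for 1 of 8 in exposed animals (Cyp2e1), beside 9.84%.

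Glul encodes glutamine synthetase, which joins ammonia to glutamate and in liver is kept to a narrow ring of hepatocytes around the central vein. In sham females it ran from 404.8 CPM through a median of 451.2 to 540.4, and in exposed females from 413.4 through 491.1 to 595.5. Sham males ran from 467.8 through 588.4 to 643.2 CPM, and exposed males from 484.9 through 535.8 to 690.4. Male groups were the higher ones and every pair of groups overlapped. The exposure difference was 0.08 ± 0.10 (log2 fold change ± SE, adjusted p = 0.797 by edgeR's quasi-likelihood test) in females. In males it was 0.0011 ± 0.11 (adjusted p = 1.00 by the same test). Sham females were lower than sham males by a log2 difference of -0.32 ± 0.11 (adjusted p = 0.0311, edgeR), and 6 of 6 sham females lay below the male mean. That call was lost when any 1 of animals 1, 5, 7, 9, 10 or 12 was left out, with adjusted p (edgeR) up to 0.0870. Exposed females stood at -0.23 ± 0.11 against exposed males (adjusted p = 0.127, edgeR), with 5 of 6 below the male mean.

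Glul also followed the library axis more closely than the other members did, with r = -0.82 over 24 group-centred libraries. With the axis score as a covariate, the difference between exposed females and males was -0.22 with an adjusted p of 0.0235 (edgeR), past the threshold.

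Oat encodes ornithine aminotransferase, a mitochondrial enzyme that turns ornithine into a precursor of glutamate. Its level was 350.2 CPM at lowest, 440.4 at the median and 551.4 at highest in sham females, and 344.9, 480.5 and 889.2 in exposed females. In sham males these values were 230.0, 319.3 and 530.4 CPM, and in exposed males 211.1, 281.5 and 485.8. Animal 24 held the highest value, 889.2 CPM, and animals 5 and 17 held the highest values of the male groups. Exposure gave 0.26 ± 0.22 in females (adjusted p = 0.701, edgeR) and -0.16 ± 0.23 in males (adjusted p = 0.927, edgeR). The female value was 0.022 without animal 24, and the male value was 0.0016 without animal 5 and -0.33 without animal 17. Exposed females exceeded exposed males by 0.75 ± 0.24 (adjusted p = 0.0280, edgeR), and 6 of 6 lay above the male mean. Without animal 24 the difference was 0.51 with an adjusted p of 0.0997 (edgeR), and it also missed the threshold when animal 13, 15, 21 or 23 was left out. Without animals 13 to 16 it was 0.71 (adjusted p = 0.159, edgeR). In sham animals the difference was 0.33 ± 0.24 (adjusted p = 0.390, edgeR). The responses of the sexes to PCB 52 differed by 0.42 ± 0.34 (adjusted p = 1.00, edgeR), and by 0.18 without animal 24, so a sex difference that depends on exposure was not shown.

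Rhbg encodes an ammonium transporter of the Rh glycoprotein family found in the pericentral hepatocyte membrane. Its counts were 55 to 117 per library. It ran from 7.22 CPM through a median of 8.83 to 10.6 in sham females, and from 7.06 through 10.05 to 10.9 in exposed females. Sham males ran from 10.3 through 11.2 to 13.7 CPM, and exposed males from 7.66 through 10.2 to 14.6. All 6 females of each exposure lay below the mean of the males of that exposure. Sham females differed from sham males by -0.37 ± 0.15 (adjusted p = 0.0823, edgeR) and exposed females from exposed males by -0.28 ± 0.15 (adjusted p = 0.205, edgeR). The sham difference passed with limma-voom (adjusted p = 0.0394), with only the 12 sham libraries in the fit (adjusted p = 0.0376, edgeR) and without animal 2 (adjusted p = 0.0474, edgeR). Exposure gave 0.05 ± 0.14 in females and -0.04 ± 0.15 in males.

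Slc1a2 encodes a sodium-dependent glutamate transporter, best known for clearing glutamate in brain and in liver found on pericentral hepatocytes. In sham females it ran from 6.71 CPM through a median of 12.1 to 24.1, the highest value being that of animal 4. The exposed females ran from 10.2 through 12.1 to 15.1 CPM, the sham males from 11.7 through 15.8 to 18.7, and the exposed males from 6.42 through 16.9 to 19.999. Animal 15 held the 6.42 CPM, while the other exposed males were at 13.7 or more. No comparison passed: exposure gave -0.06 ± 0.23 in females and 0.01 ± 0.22 in males, and females against males gave -0.29 ± 0.24 in sham and -0.37 ± 0.24 in exposed animals (adjusted p = 0.473 and 0.333, edgeR).

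**Figure D2:**
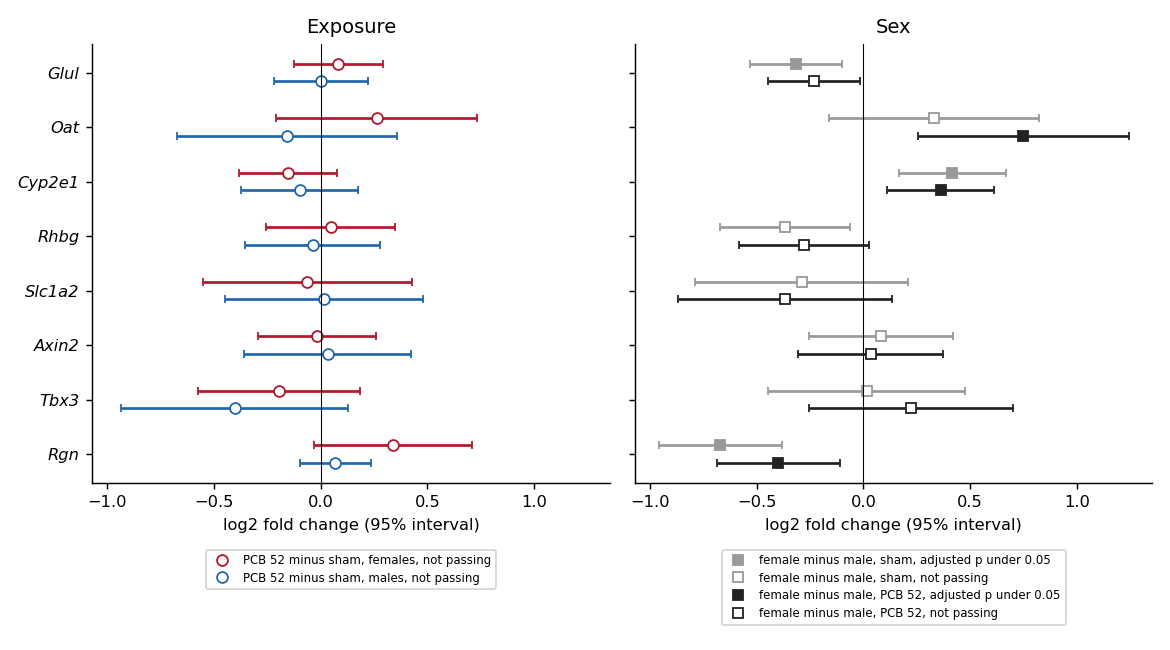
Log2 fold changes of the 8 tested genes with 95% intervals from edgeR's quasi-likelihood fits, for PCB 52 minus sham (left) and female minus male (right). Filled markers have an adjusted p under 0.05: none on the left, Cyp2e1, Rgn and Glul in sham animals, and Cyp2e1, Rgn and Oat in exposed animals.

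Cyp2e1 encodes a cytochrome P450 that oxidises small molecules such as ethanol and is a classic marker of the pericentral zone. Sham females ran from 3280 CPM through a median of 4339 to 5041, and exposed females from 3569 through 3758 to 3862. Sham males ran from 2629 through 3046 to 3586 CPM, and exposed males from 2029 through 2828 to 3440. The 6 exposed females sat in a narrow band, with a coefficient of variation of 2.85%, against 17.3% in sham females, 12.4% in sham males and 18.5% in exposed males. The difference in spread was not tested. All 6 exposed females were below the sham female mean. The exposure difference was -0.15 ± 0.11 in females (adjusted p = 0.660, edgeR) and -0.10 ± 0.13 in males (adjusted p = 0.910, edgeR). In males it turned positive, to 0.047, without animals 13 to 16 and to 0.017 with the library axis as a covariate.

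Females had more Cyp2e1 than males under both exposures. In sham animals the difference was 0.42 ± 0.12 (adjusted p = 0.0135, edgeR), a fold of 1.33 with 6 of 6 females above the male mean, and the call held in all 12 fits that left out 1 animal. In exposed animals it was 0.36 ± 0.12 (adjusted p = 0.0339, edgeR), a fold of 1.28, and the lowest exposed female (3569 CPM) was above the highest exposed male (3440 CPM). This call was lost when any 1 of animals 13, 14, 15, 22, 23 or 24 was left out, with adjusted p (edgeR) from 0.0514 to 0.102. Without animals 13 to 16 together the difference was 0.22 (adjusted p = 0.325, edgeR). With all libraries, limma-voom gave an adjusted p of 0.0568. The difference between the sexes' responses was -0.05 ± 0.17 (adjusted p = 1.00, edgeR).

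Rgn encodes regucalcin, a calcium-binding protein with gluconolactonase activity that is abundant in liver. It was the member in which the sexes stood furthest apart in sham animals. Sham females ran from 484.0 CPM through a median of 558.0 to 676.1, and sham males from 738.8 through 893.9 to 995.0, so the groups did not overlap. Exposed females ran from 558.0 through 617.4 to 1198 CPM, and exposed males from 813.1 through 906.9 to 1023. Animal 14 alone held the 1198 CPM, and the other 5 exposed females lay between 558.0 and 636.9, below all exposed males.

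Sham females had less Rgn than sham males by -0.67 ± 0.14 (adjusted p = 7.18e-04, edgeR), a level 0.628 times that of males, and the call held in all 12 fits that left out 1 animal. In exposed animals the difference was -0.40 ± 0.14 (adjusted p = 0.0430, edgeR). Without animal 14 it was -0.63 (adjusted p = 3.71e-06, edgeR). The call was kept without animal 14 or 21 and lost in the other 10 fits that left out 1 animal, with adjusted p (edgeR) up to 0.113. The same animal bore on the exposure contrast: females gave 0.34 ± 0.17 (adjusted p = 0.539, edgeR), and 0.11 without animal 14. Males gave 0.07 ± 0.08. The average response was 0.21 ± 0.10 (adjusted p = 0.317, edgeR), and 0.091 without animal 14.

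Axin2 encodes a scaffold of the destruction complex and is induced by the pathway it restrains, which makes it the usual readout of Wnt signalling. Its counts were 54 to 117 per library. Sham females ran from 8.86 CPM through a median of 10.7 to 12.5, and exposed females from 7.96 through 10.4 to 13.5. Sham males ran from 7.13 through 9.58 to 13.9 CPM, and exposed males from 6.399 through 9.88 to 15.2. The 4 groups overlapped almost fully, and their means lay between 9.84 and 10.6 CPM. Exposure gave -0.02 ± 0.13 in females and 0.03 ± 0.19 in males, with 95% intervals from -0.30 to 0.26 and from -0.36 to 0.42. Those intervals bound the change that could have been missed. Females against males gave 0.08 ± 0.17 in sham animals and 0.03 ± 0.17 in exposed animals.

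Lgr5 encodes the R-spondin receptor that marks a subset of pericentral hepatocytes. It was near the limit of detection, with 0 to 18 counts per library. Sham females ran from 0.239 CPM through 0.453 to 1.29, and exposed females from 0 through 0.624 to 0.968. The 0 was animal 16, whose depth allows up to 0.386 CPM, by the 3 counts that a count of 0 allows. Sham males ran from 0.286 through 0.763 to 1.17 CPM, and exposed males from 0.474 through 1.15 to 2.34, with animal 13 highest. Fitted without the filter, exposure gave 0.72 ± 0.42 in males (adjusted p = 0.836, edgeR) and 0.09 ± 0.54 in females. Exposed females against exposed males gave -1.13 ± 0.47 (adjusted p = 0.113, edgeR), and sham females against sham males gave -0.50 ± 0.50 (adjusted p = 0.591, edgeR). No difference was detectable at this depth.

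Tbx3 encodes a T-box transcriptional repressor that acts downstream of beta-catenin. It ran from 8.42 CPM through a median of 10.1 to 16.3 in sham females, and from 5.66 through 9.78 to 13.01 in exposed females. Sham males ran from 6.89 through 9.77 to 14.1 CPM, and exposed males from 3.79 through 7.68 to 12.5. The exposed groups had the lower medians, and they overlapped their sham groups. Exposure gave -0.19 ± 0.18 in females (adjusted p = 0.735, edgeR) and -0.40 ± 0.25 in males (adjusted p = 0.829, edgeR), with 5 of 6 exposed males below the sham mean. In females it was 0.0069 without animals 13 to 16 and -0.059 without animal 4, the highest sham female. In males it ran from -0.58 without animal 17 to -0.27 without animal 21. The average response was -0.30 ± 0.16 (adjusted p = 0.382, edgeR).

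Pooling the sham and exposed sex contrasts, a choice made after the values were seen, gave 5 of 8 members past the test beside 32.3% of all genes. Rgn (-0.54 ± 0.10, adjusted p = 9.21e-05), Glul (-0.27 ± 0.07, adjusted p = 0.00466) and Rhbg (-0.32 ± 0.11, adjusted p = 0.0174) were lower in females by edgeR's quasi-likelihood test. By the same test, Cyp2e1 (0.39 ± 0.09, adjusted p = 6.73e-04) and Oat (0.54 ± 0.17, adjusted p = 0.0161) were higher. Slc1a2 had -0.33 ± 0.17 (adjusted p = 0.154, edgeR). Genes of the same zone differed in both directions. Markers of Kupffer cells and macrophages moved with sex, 5 of 7 being called higher in sham females and 4 of 7 in exposed females, beside 10.7% and 10.1% of all genes. Their summed level was 478.2 to 667.6 CPM in sham females and 353.2 to 450.9 in sham males, and none of them was at 0 in every library of a group. Endothelial markers summed to 328.9 to 534.0 CPM in sham females and 356.9 to 444.8 in sham males. The part of these cells in the members' sex differences was not tested.

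Other genes of the pathway were taken from lists of ligands, receptors, effectors, targets and zone markers. In neither sex did exposure bring a gene of any of these lists past the test. Below 0 in females were 13 of 15 other pericentral genes (median -0.12), beside 49.3% of all genes. In males 12 of 15 were below 0 (median -0.078), beside 49.0%. Without animals 13 to 16, a check added after the values were seen, 13 of 15 were below 0 in females (median -0.11) and 6 of 15 in males (median 0.068). With the library axis as a covariate, whose score also holds exposure differences, the counts were again 13 and 6. Of the other Wnt targets, 3 of 7 were below 0 in females and 6 of 7 in males, and 2 and 5 without animals 13 to 16. For these targets the axis covariate left 1 of 7 below 0 in females (median 0.26) and 4 of 7 in males (median -0.057). In sham animals the other pericentral genes gave 5 of 15 higher in females and 2 lower, with a median difference of 0.30, beside 10.7% and 9.62% of all genes called higher and lower. In exposed animals 6 were higher and 3 lower, beside 10.1% and 9.73%. Gstm1, a glutathione transferase of a family with similar copies, was at 467 ± 28.3 CPM in sham females and 1160 ± 156 in sham males (SD, n = 6), a log2 difference of -1.34 ± 0.12 (adjusted p = 7.48e-10, edgeR). Nr1i3 encodes CAR, the nuclear receptor through which many xenobiotics induce cytochromes, and its level was 27.5 ± 6.88 against 121 ± 35.0 CPM. Lect2, a secreted chemotactic protein, was at 179 ± 17.7 against 107 ± 11.2 CPM, higher in 6 of 6 females than the male mean.

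Among the other Wnt targets, 0 of 7 were higher and 2 lower in sham females, beside 10.7% and 9.62% of all genes. In exposed females 1 was higher and 1 lower, beside 10.1% and 9.73%. Notum encodes a secreted enzyme that removes the lipid from Wnt proteins and is itself a Wnt target. It was at 61.7 ± 14.2 CPM in sham females and 112 ± 21.6 in sham males (log2 difference -0.89 ± 0.23, adjusted p = 0.00563, edgeR), and at 61.3 ± 19.8 and 100 ± 35.1 in exposed animals (-0.75 ± 0.23, adjusted p = 0.0196, edgeR). Ccnd1, the G1 cyclin D1, was at 52.2 ± 18.6 CPM in sham females against 94.9 ± 18.6 in sham males (-0.87 ± 0.30, adjusted p = 0.0432, edgeR). Sp5, a transcription factor, gave -0.62 ± 0.32 (adjusted p = 0.198, edgeR), with 1.96 ± 0.986 against 2.96 ± 0.700 CPM. Rnf43, which like Znrf3 clears Frizzled receptors from the membrane, was higher in exposed females by 0.59 ± 0.18 (adjusted p = 0.0176, edgeR).

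In sham animals and in exposed animals, the ligands and receptors that passed were higher in females, in numbers to be read against the 10.7% (sham) and 10.1% (exposed) of all genes called higher. In exposed animals 1 of 5 ligand and secretion genes and 4 of 10 receptors were higher, with 0 lower in either list. With both exposures pooled, 4 of 10 receptors were higher and 1 lower, beside 32.3% of all genes called in either direction. Of 5 ligand and secretion genes tested in sham animals 2 were higher and 0 lower: Porcn, the acyltransferase that lipidates Wnts, by 0.87 ± 0.22, and Wnt4 by 1.03 ± 0.35 (adjusted p = 0.00365 and 0.0351, edgeR). Of 10 receptors 2 were higher and 0 lower in sham animals, beside 10.7% and 9.62% of all genes. Fzd4, a Frizzled receptor that endothelial cells also use, was at 99.96 ± 17.8 CPM in sham females and 40.7 ± 8.40 in sham males (1.27 ± 0.15, adjusted p = 3.24e-07, edgeR), and Lrp5, the co-receptor, was at 190 ± 29.9 and 127 ± 17.7 CPM. Of 15 destruction complex genes and effectors 2 were higher and 1 lower in sham animals, shares close to the 10.7% and 9.62% of all genes: Ctnnb1, beta-catenin itself, by 0.41 ± 0.06, Tcf7l1 by 0.63 ± 0.10, and Tcf7l2, another TCF factor, by -0.36 ± 0.09. None of 5 secreted inhibitors passed. List medians were 0.089 for ligands, 0.14 for receptors, -0.013 for the complex and effectors and 0.10 for inhibitors.

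The partners of Glul and Oat in glutamine, ornithine and ammonia handling gave 1 of 12 higher and 1 lower in sham females, close to the 10.7% and 9.62% of all genes. Odc1, which makes putrescine from ornithine, differed by 0.40 ± 0.12 and Aldh4a1, the mitochondrial enzyme that completes the path from proline and ornithine to glutamate, by -0.36 ± 0.09. Periportal genes, the opposite zone, gave 3 of 15 higher and 6 lower in sham females, with a median of -0.15, beside 10.7% and 9.62% of all genes. Asl, of the urea cycle, was at 660.0 ± 138 CPM in females and 358 ± 35.4 in males, and Sds, serine dehydratase, at 145 ± 55.4 and 658 ± 252. Aldh1b1, a mitochondrial aldehyde dehydrogenase, was at 72.6 ± 30.1 and 18.3 ± 7.53 CPM. Both zones held genes that were higher and genes that were lower in females.

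**Figure D3:**
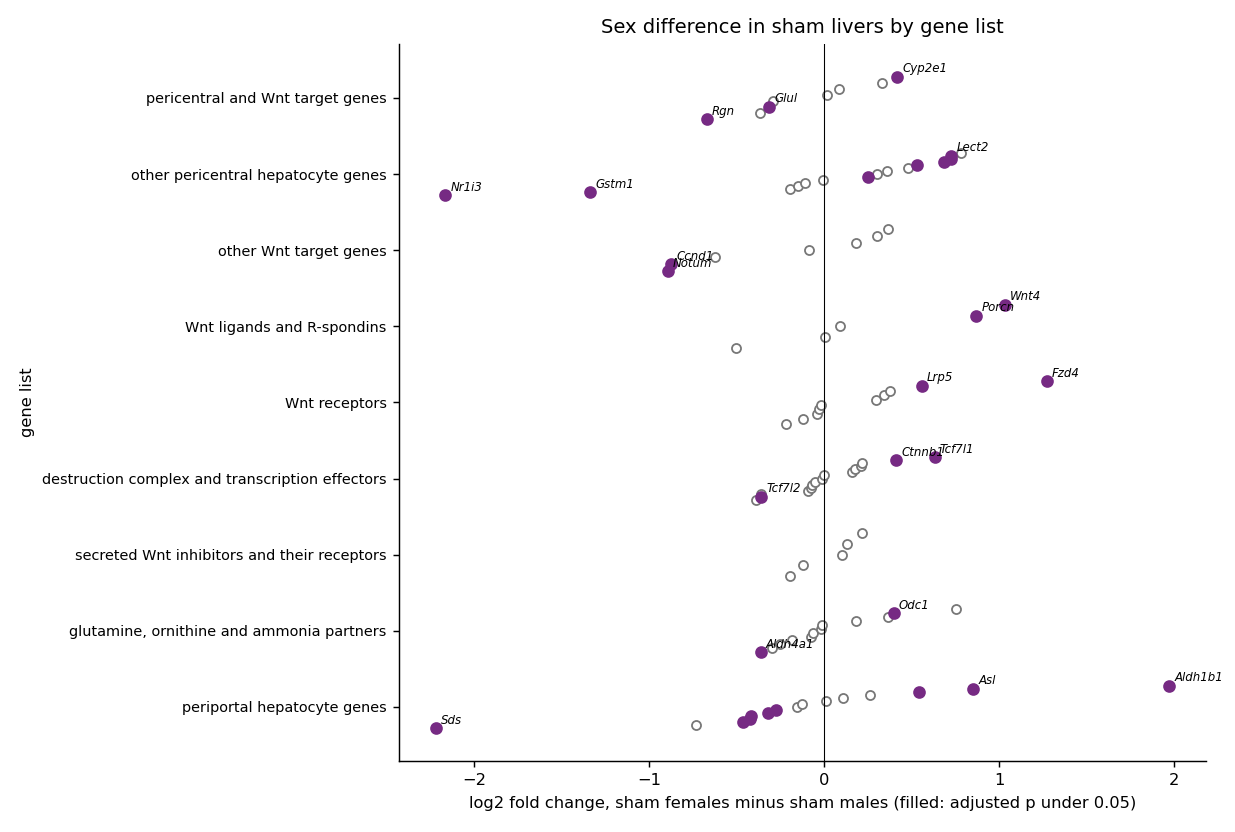
Log2 difference between sham females and sham males (x axis) for every tested gene of each list (rows), filled where the adjusted p is under 0.05, with the genes named in the text labelled. Filled points lie on both sides of 0 among the pericentral and periportal lists, and above 0 alone among ligands and receptors.

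Animals of a group also differed from one another, and the members did so partly together. With each group's mean removed, 33 of the 36 pairs of the 9 measured members had a positive Pearson r over 24 libraries, with a median of 0.29. The highest were Glul with Lgr5 (0.61), Lgr5 with Tbx3 (0.60), Glul with Tbx3 (0.58), Axin2 with Tbx3 (0.53) and Cyp2e1 with Slc1a2 (0.53). Glul with Tbx3 reached 0.67 in females and 0.53 in males, while Cyp2e1 with Slc1a2 was 0.25 in females and 0.73 in males. Rgn had the median 0.11 over its 8 pairs, with 3 of them below 0. All points share library depth and composition, and the correlations describe these libraries only. After the library axis was projected out, 31 of 36 pairs were positive and the median was 0.23. For the 8 pairs with Rgn, 7 were then positive and the median was 0.25, so Rgn did not stand apart once the axis was removed. Glul with Lgr5 was then 0.50 and Glul with Cyp2e1 went from 0.51 to 0.23.

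**Figure D4:**
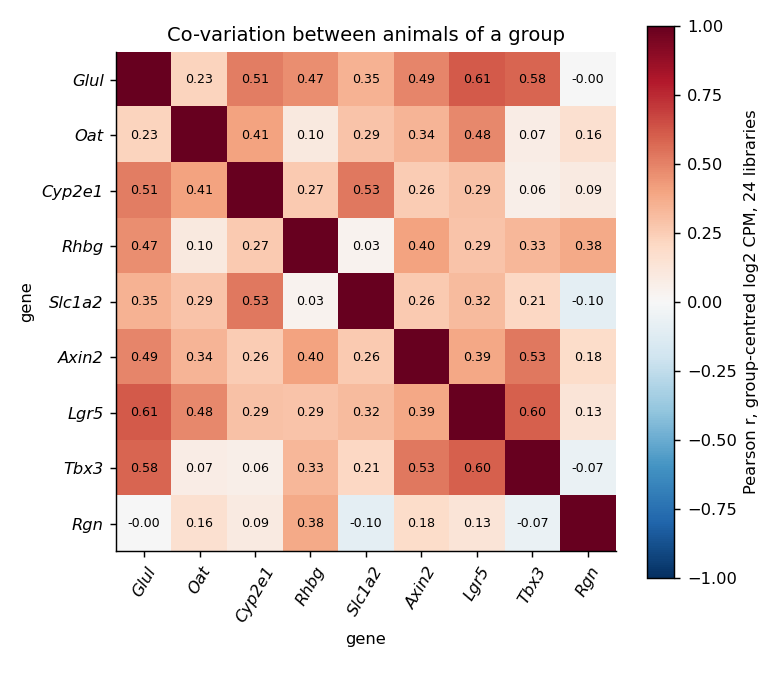
Pearson r between each pair of the 9 measured genes (both axes), from log2 CPM with the group mean removed, over 24 libraries. Glul, Lgr5 and Tbx3 form the block of highest values (0.58 to 0.61), and 3 of the 8 Rgn pairs are below 0.

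Genes whose levels were most like a member's were sought among 10535 tested genes by the same r. Members, gene IDs without a symbol and provisional symbols (LOC, RGD or AABR) were left out of the ranking. For Glul they were R3hdm4 (0.85), Notum (0.81), Ptov1 (0.80), Nags (0.80) and Srsf9 (0.79). Notum, described above, was the only one of these on a Wnt list, and Nags makes the activator of the first urea cycle enzyme. All 5 followed the library axis with r between -0.82 and -0.88, as Glul did. With the axis projected out, Notum's r with Glul was 0.34 and that of R3hdm4 was 0.55. For Cyp2e1 they were Cst3 (0.79), Xpnpep2 (0.77), Rpl35 (0.77), Habp2 (0.75) and Mrpl23 (0.74), and with the axis projected out these stayed between 0.65 and 0.74. For Axin2 they were Gps2 (0.72), Thap11 (0.71), Pard6b (0.70), Nacc2 (0.70) and Mkrn2 (0.70), between 0.66 and 0.71 with the axis projected out. None of the 10 genes most like Cyp2e1 or Axin2 was a member of a Wnt or zone list.

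**Figure D5:**
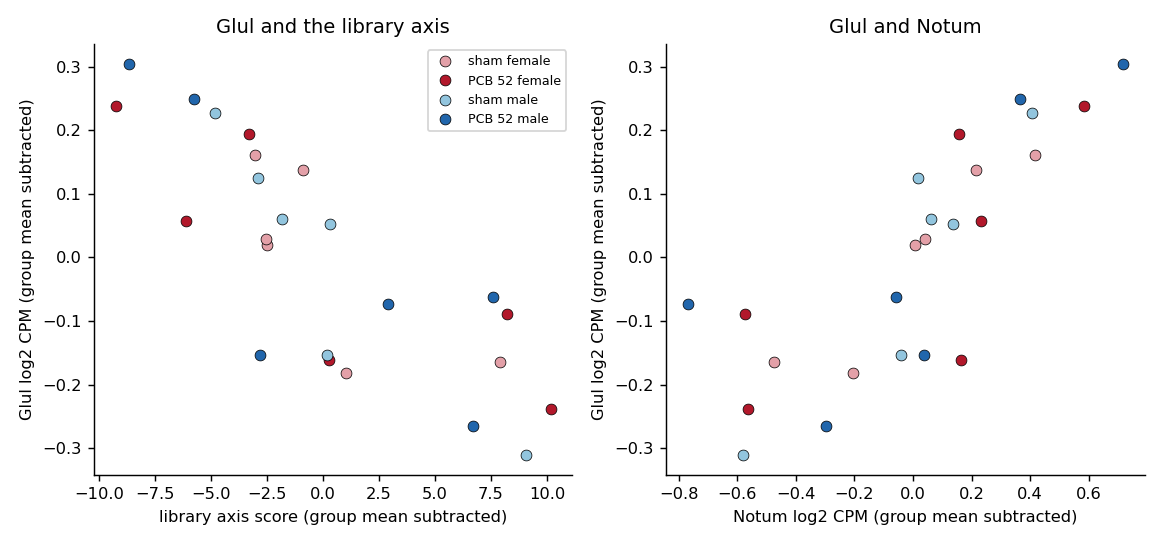
Glul log2 CPM with the group mean removed, against the library axis score (left) and against Notum log2 CPM (right), each with the group mean removed, 1 point per animal. Glul falls along the axis (r = -0.82) and rises with Notum (r = 0.81) in all 4 groups, and Notum itself has r = -0.87 with the axis.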

How the data were processed

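Liver RNA of 24 rats was sequenced as 1 library per animal, in 4 groups of 6. Gene counts without normalization, in 1 table for each sex, were deposited by the authors. Per the submitters' processing notes, FastQC, HISAT2 and the rat build rn6 were used. The counting tool, strand setting and annotation are not given in the sources used here, so reads of overlapping or antisense genes could not be told apart. The 9 members matched by Entrez ID. The 89 gene IDs without a symbol in the RefSeq table of GRCr8, of 15319, stayed in the tests. One animal's title and column name differed in their last digits, and it was matched by its description.

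Tests used edgeR 4.0.16 in R 4.3.3 (TMM, filterByExpr with minimum count 10 and minimum total 15, robust quasi-likelihood test, Benjamini-Hochberg adjustment over all genes, threshold 0.05). Exposure was fitted within each sex, and sex contrasts, the difference of responses and their average in 1 fit of 24 libraries. The scripts were tested on simulated data. Replicates in a group differed by more than sampling noise (lowest chi-square per degree of freedom 6.68), so none was a duplicate. Alternatives were RLE factors, no filter, a filter at 1 CPM in 6 libraries, DESeq2 1.42.0, limma 3.58.1 (voom with quality weights), each animal left out, animals 13 to 16 left out, the library axis score as covariate, other samples in the fit and a block joining animals of consecutive number. The gene weights of the axis score are those of the leading component of log2 CPM (prior count 2) after group means are removed. The weights applied to one sex were learned in the other. The score itself was taken with only the mean of each sex removed, so it holds differences between sham and exposed animals. As a covariate it therefore also adjusts for part of the exposure contrast. Correlations with the axis used the score with group means removed. Correlations used log2 CPM with group means removed.

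Members and lists were chosen with earlier results of these data known. The text names all members, up to 3 genes per list with the smallest p in the comparison described, and the 5 genes most like Glul, Cyp2e1 and Axin2. Marker and gene lists other than those described are given with the other observations.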

Additional observations from a re-analysis of the deposited data

Results flagged for a closer look

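In 36 groups of 6 libraries (9 members, 4 groups), the highest or lowest library lay far from the rest by Dixon's criterion in 2. Gaps and ranges were measured on log2 CPM. Chance flags about 1 in 20 such groups. Slc1a2 was at 6.42 CPM in exposed male animal 15, with a gap to the nearest library of 0.664 of the group's range. Rgn was at 1198 CPM in exposed female animal 14, with a gap of 0.827 of the range. Both animals are among animals 13 to 16, which had the highest library axis scores before group means were removed.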

How the results depend on the processing

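The counts of members past the test in the exposure comparisons, the difference of responses and the average response were 0 under every alternative run. In sham animals the sex count was 3 and ran from 2 to 4 when 1 animal was left out. It was 4 with limma-voom and with only the 12 sham libraries in the fit. In exposed animals it was 3 and went to 1 without animals 13 to 16 and to 1 with only the 12 exposed libraries in the fit. It went to between 0 and 2 when 1 animal was left out (0 without animal 24, 13, 15 or 23). Averaging the sham and exposed contrasts, an alternative added after the data were seen, measures another quantity, from all 24 animals. That average gave 5 members, beside 32.3% of all genes. Over 36 results of single members and 798 alternatives, 708 kept their direction and side of the threshold, 33 lost and 8 gained a call, and 49 reversed. All reversals were of log2 differences that had not passed the test, and none passed after reversing.

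In females, exposure reversed to 0.046 for Slc1a2, 0.066 for Axin2 and 0.0028 for Tbx3 with the axis covariate, and without animals 13 to 16 to 2.32e-04 for Axin2 and 0.0069 for Tbx3. In males, Glul reversed to -9.95e-04 with RLE factors, -1.04e-04 with no filter, -0.0025 with the filter at 1 CPM and -9.94e-04 with DESeq2. Oat went to 0.0089, Cyp2e1 to 0.017 and Rhbg to 0.047 with the axis covariate, Cyp2e1 to 0.047 and Rhbg to 0.084 without animals 13 to 16, and Axin2 to -0.010 with limma-voom. Leaving out 1 animal gave, in females, -0.0012 to 0.12 for Rhbg, -0.19 to 0.18 for Slc1a2 and -0.090 to 0.035 for Axin2. In males it gave -0.070 to 0.0495 for Glul, -0.33 to 0.0016 for Oat, -0.14 to 0.048 for Rhbg, -0.071 to 0.18 for Slc1a2 and -0.13 to 0.16 for Axin2. The sex difference ranged from -0.12 to 0.12 for Tbx3 in sham animals and from -0.062 to 0.19 for Axin2 in exposed animals. Unless the construction of an alternative shows it, the cause was not tested.

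With the block for consecutively numbered animals, which the labels do not pair, Oat in exposed animals was 0.72 with an adjusted p of 0.110 (edgeR). Members deviated together within such pairs unevenly, from r = -0.49 for Oat to 0.48 for Axin2 over 12 pairs. Lgr5, with at most 18 counts, is limited by depth in every comparison.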

Other observations

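Lists not described above gave these counts for sham females against sham males: hepatocyte markers 0 of 7 higher and 2 lower, endothelial markers 0 of 8 and 1, cholangiocyte markers 0 of 3 and 1, stellate cell markers 0 of 7 and 0, lymphocyte markers 0 of 1 and 0, erythroid markers 0 of 3 and 0, and adipocyte markers 1 of 2 and 0. Of all genes, 10.7% were called higher and 9.62% lower in sham females. Of the hepatocyte markers, Serpina1 (alpha-1-antitrypsin) was lower in sham females by a log2 difference of -0.64 and Apoa1, the main apolipoprotein of HDL, by -0.66, while transthyretin (Ttr) gave -0.23 and did not pass (adjusted p = 0.180, edgeR). Of the Kupffer cell list, the receptor Csf1r was higher by 0.45, Clec4f by 0.38 and Vsig4 by 0.59. In females, Slc38a2, an amino acid transporter that carries glutamine, was at 117 ± 44.6 CPM after exposure against 227 ± 96.1 in sham animals (SD, n = 6), with 6 of 6 exposed below the sham mean and an adjusted p of 0.420 (edgeR).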
